A study of Mus musculus with 25 samples.

Results

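Transforming growth factor beta (TGF-beta) genes were followed across mouse melanomas: the 3 ligand genes Tgfb1, Tgfb2 and Tgfb3, the 3 receptor genes Tgfbr1, Tgfbr2 and Tgfbr3, and Smad7, Skil and Tgfbi, which are widely used as target genes of the pathway. These 9 genes were named by symbol, with earlier results of these data known, among 55450 genes in the count table. All 9 passed the filter on low counts that left 18031 genes for testing. The 25 tumours grew in C57BL/6 mice from B2905 cells, a mouse melanoma line that the labels also call M4. Of these, 20 came from among 30 mice given anti-CTLA-4, which blocks an inhibitory receptor of T cells. A further 5 came from mice given the isotype control antibody IgG2b (controls), and both antibodies were given at 10 mg/kg. Results for the anti-CTLA-4 tumours therefore cover 20 of the 30 treated mice. The anti-CTLA-4 tumours were sorted by their size 10 to 11 days after the last dose into 8 responders that shrank, 6 stable tumours and 6 non-responders that grew. No genetic change in the hosts is named in the labels, all tumours come from 1 cell line, and neither mouse age nor sex was used here. Because outcome was read from tumour size, the 3 outcome groups also differ in size by definition.

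TGF-beta ligands are secreted in a latent form, in which the mature dimer stays bound to its own propeptide and often to a latent TGF-beta binding protein, and integrins or thrombospondin can release it. The active ligand binds the type II receptor, encoded by Tgfbr2, which recruits and phosphorylates the type I receptor, encoded by Tgfbr1, and this in turn phosphorylates SMAD2 and SMAD3. In tumours the pathway is known for restraining T cells and for activating fibroblasts, and melanoma cells, macrophages, fibroblasts and regulatory T cells are all known sources of ligand.

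The 9 genes lie on 9 different chromosomes. On mouse build GRCm38 (GENCODE release M21), Tgfb1 spans chr7:25687002-25705077 on the plus strand, Tgfb2 chr1:186622792-186705989 on the minus strand and Tgfbr1 chr4:47353222-47414931 on the plus strand. The 250 bases before the start of these 3 genes are shown because Tgfb1 and Tgfbr1 were higher in anti-CTLA-4 tumours while Tgfb2 was lower. The sequences are RefSeq's on GRCm38.p6, at chr7:25686752-25687001 (plus strand), chr1:186705990-186706239 (minus strand) and chr4:47352972-47353221 (plus strand), and run 5′ to 3′ toward the start of the gene. Capitals mark matches on either strand to 2 short words that SMAD proteins are known to bind, CAGACA (reverse complement TGTCTG) and GGCGC (reverse complement GCGCC).
Tgfb1 promoter: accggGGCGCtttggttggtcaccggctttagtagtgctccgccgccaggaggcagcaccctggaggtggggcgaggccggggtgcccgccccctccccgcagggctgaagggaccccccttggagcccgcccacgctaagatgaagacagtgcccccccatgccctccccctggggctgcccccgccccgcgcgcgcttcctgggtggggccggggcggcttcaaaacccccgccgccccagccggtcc
Tgfb2 promoter: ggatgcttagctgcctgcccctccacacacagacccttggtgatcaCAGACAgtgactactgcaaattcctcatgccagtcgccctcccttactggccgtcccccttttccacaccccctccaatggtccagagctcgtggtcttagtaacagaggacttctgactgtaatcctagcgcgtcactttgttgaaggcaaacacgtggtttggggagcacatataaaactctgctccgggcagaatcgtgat
Tgfbr1 promoter: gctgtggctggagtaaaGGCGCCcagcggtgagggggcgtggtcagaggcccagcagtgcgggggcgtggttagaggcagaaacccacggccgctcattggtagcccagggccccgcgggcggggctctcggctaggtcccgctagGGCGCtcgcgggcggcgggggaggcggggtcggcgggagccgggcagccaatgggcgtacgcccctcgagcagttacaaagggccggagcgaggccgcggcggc
The Tgfb1 window was 75.2% G or C and held 1 GGCGC match, and the Tgfbr1 window was 74.8% G or C and held 3, of which a pair overlap. The Tgfb2 window was 53.6% G or C, close to the median of 52.4% over 32851 RefSeq promoter windows of that length, and held 1 CAGACA match and 0 GGCGC matches. CAGACA occurred in 17.1% and GGCGC in 32.0% of all such windows, so these matches are a description of the letters and no more. RefSeq entries were found for 5 of the 9 genes. Tgfbr1 had another entry, at chr4:47385966-47386215, whose start is not the GENCODE start of the gene. That window was 52.8% G or C and held 1 CAGACA match and 0 GGCGC matches.

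Depth and library composition set the limits of what follows. Total counts ranged from 8.76 to 34.3 M per tumour. The share of counts on protein-coding genes was 82.9 to 89.2% in all 17 tumours that were not responders and 23.8 to 74.3% in 7 of the 8 responders, with responder 1 the lowest and responder 5, at 87.0%, inside the range of the other groups. Library numbers in the labels also run by group, so a processing order cannot be told apart from outcome. Where responders differ from another group, this composition moved with the difference. With responder 5 the only responder inside that range, values adjusted for this share below cannot separate outcome from composition. The labels' tissue was checked against 7 melanocyte genes, whose summed level in counts per M counts (CPM) was 10504 to 17110 in controls and 723 to 13868 in non-responders, while stable tumours had 227 to 504 and responders 303 to 722. Mlana and Tyr were each at 0 in 1 tumour. In bulk tumour RNA, fewer cells of a type and less RNA per cell cannot be told apart.

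Levels of one gene are given below as CPM scaled by the trimmed mean of M-values (TMM), and levels are compared between genes only as RPKM, the authors' reads per kilobase per M reads. A gene is called higher or lower where edgeR's quasi-likelihood F test gave a Benjamini-Hochberg adjusted p under 0.05 over all 18031 genes. Against controls, 7 of the 9 genes were called in the mean of the 3 anti-CTLA-4 groups, 6 higher and 1 lower, where 51.1% of all genes tested were called, 27.7% higher and 23.4% lower. Responders had 5 higher and 2 lower than controls, where 65.0% of all genes were called, 36.1% higher and 28.9% lower. Stable tumours had 6 higher and 0 lower than controls, against 41.8% of all genes, 22.2% higher and 19.6% lower. Non-responders had 3 higher and 0 lower than controls, against 13.9% of all genes, 10.6% higher and 3.29% lower. Between outcomes, 4 genes were higher and 2 lower in responders than in non-responders, where 48.9% of all genes were called, 25.2% higher and 23.8% lower. Responders against stable tumours gave 1 higher and 2 lower, against 38.2% of all genes, 20.5% higher and 17.8% lower. Stable tumours against non-responders gave 4 higher and 0 lower, against 14.9% of all genes, 7.08% higher and 7.86% lower. Wherever responders entered, so many of all genes were called that the count of the 9 is no result about them. The other counts are a description too, since the 9 genes were named with earlier results of these data known. The median log2 fold change of the 9 genes was 0.70 for anti-CTLA-4 against control, beside 0.07 over all genes, and 0.11 for responders against non-responders, beside 0.05. The comparisons with controls share the same 5 control tumours, and those between outcomes share outcome groups.

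**Figure D1:**
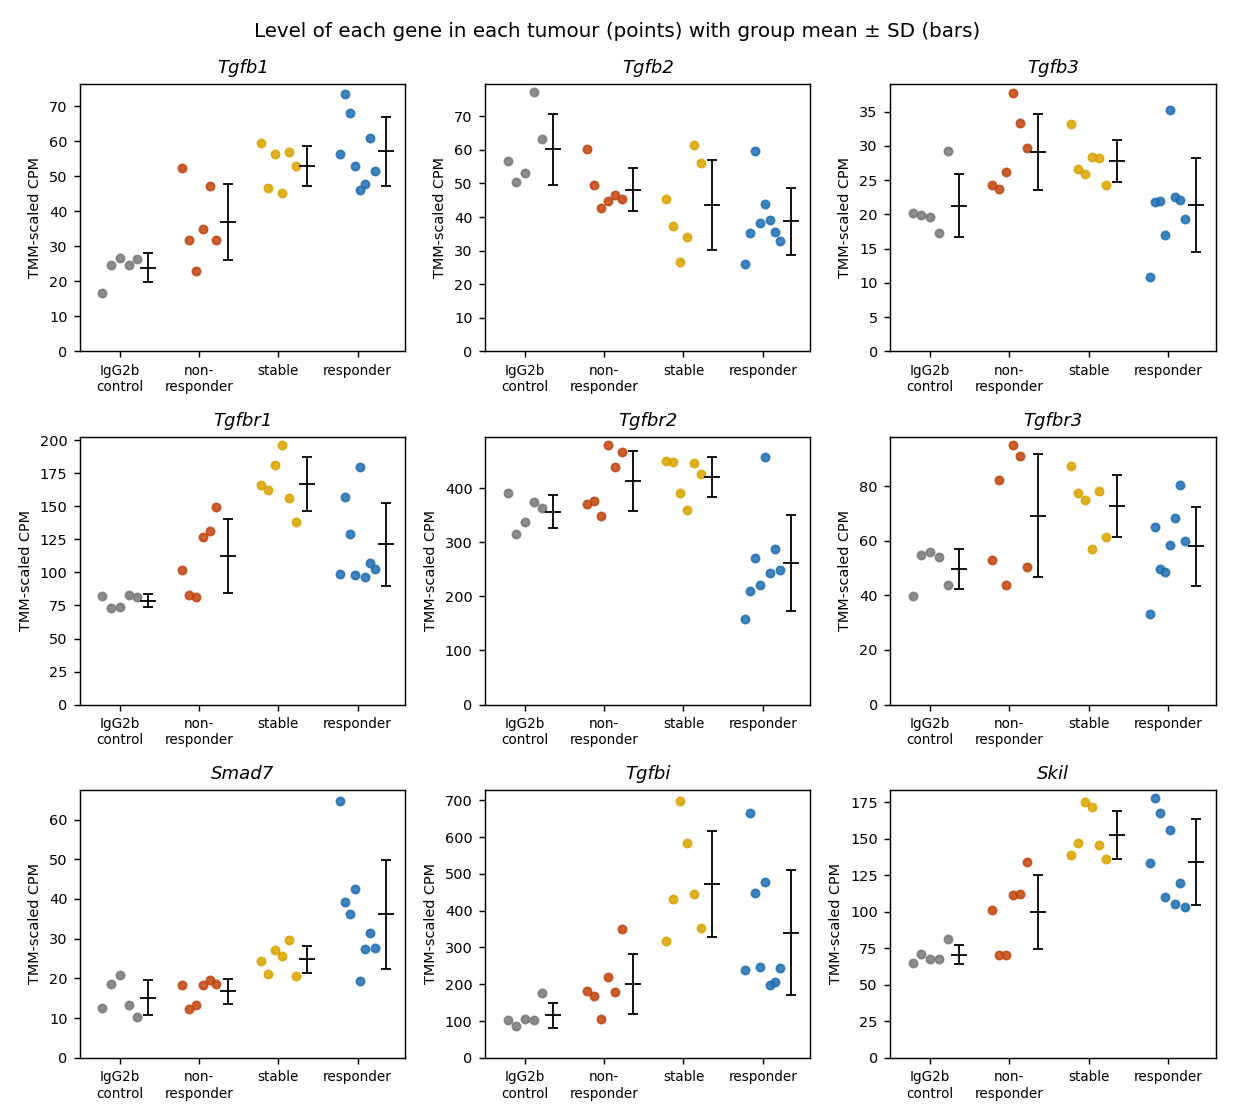
Each panel plots the TMM-scaled CPM (vertical axis, from 0) of 1 gene in every tumour by group, with black bars for the group mean ± SD. Group means of Tgfb1 and Smad7 are highest in responders and those of Tgfbr1, Tgfbi and Skil in stable tumours, and Tgfbr2 is lowest in 7 of 8 responders.

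Ligands were not measured at equal levels by RPKM, and their order changed between groups. Gene lengths behind the RPKM values are not given, and which ligand leads within a tumour rests on them. Over the 25 tumours the mean RPKM was 15.4 for Tgfb1, 9.66 for Tgfb2 and 6.45 for Tgfb3. In controls, Tgfb2 had the highest RPKM of the 3 ligands in 5 of 5 tumours. In responders and stable tumours Tgfb1 was highest in 8 of 8 and 6 of 6, and in non-responders it was highest in 5 of 6, the remaining one being led by Tgfb2.

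Tgfb1, the ligand most associated with immune and stromal cells, measured 16.7, 24.7, 26.7, 24.7 and 26.4 CPM in the 5 controls. Non-responders ranged from 23.0 to 52.3 CPM with a median of 33.4, stable tumours from 45.3 to 59.4 with a median of 54.5, and responders from 46.0 to 73.6 with a median of 54.5. All responders and all stable tumours lay above every control, and 5 of 6 non-responders did. The fitted log2 fold change of anti-CTLA-4 tumours against controls was 1.01 ± 0.15 (SE, adjusted p = 1.04e-05), a 2.02-fold difference, with 19 of 20 tumours above every control. Against non-responders, Tgfb1 was higher in responders by 0.63 ± 0.15 on the log2 scale (adjusted p = 0.00232, 5 of 8 above every non-responder) and in stable tumours by 0.52 ± 0.16 (adjusted p = 0.0334, 4 of 6). The latter call failed once any of stable 1, 3 and 5 and non-responders 2, 3 and 4 was left out (adjusted p from 0.0548 to 0.0890), without the filter on low counts (0.0589), with only the 2 groups compared (0.0608) and by limma on RPKM (0.0554). Responders and stable tumours did not differ by the test, at 0.11 ± 0.15 (adjusted p = 0.579). Non-responders were above controls by 0.63 ± 0.17 (adjusted p = 0.0162), a call lost without non-responder 5 or control 1 at adjusted p-values of 0.0508 to 0.0657, without the filter (0.0529) and with only the 2 groups compared (0.0836). Adjusted for the protein-coding share, the responder to non-responder difference was 0.60 ± 0.20, at an adjusted p of 0.0539. With the logarithm of that share it was 0.63 ± 0.18 (adjusted p = 0.0173).

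Tgfb2, a ligand known from neural crest and epithelial development, went the other way. It measured 56.8, 50.5, 53.2, 77.1 and 63.1 CPM in the 5 controls. Non-responders ranged from 42.7 to 60.2 CPM (median 45.9), stable tumours from 26.7 to 61.5 (median 41.4) and responders from 25.9 to 59.6 (median 36.8). Of the 20 anti-CTLA-4 tumours, 16 lay below every control. The log2 fold change of the anti-CTLA-4 arm was -0.47 ± 0.15 (adjusted p = 0.0134), which became -0.37 (adjusted p = 0.0761) without control 4 and -0.36 (adjusted p = 0.0564) when adjusted for the protein-coding share. Responders against controls gave -0.63 ± 0.18 (adjusted p = 0.00368), or -0.34 (adjusted p = 0.210) with that adjustment. Stable tumours against controls gave -0.47 ± 0.19 (adjusted p = 0.0535), under the threshold in 7 of the 8 alternative settings. The 3 comparisons between outcomes were not called, with responders against non-responders at -0.31 ± 0.17 (adjusted p = 0.134). A predicted gene, Gm29491, has exons on the opposite strand that overlap those of Tgfb2, and whether the authors' counting used strand is not given in the sources used here.

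Tgfb3, the ligand with the lowest mean RPKM, had 17.3 to 29.3 CPM in the controls and 23.8 to 37.7 in the non-responders, and stable tumours had 24.3 to 33.1 and responders 10.9 to 35.2. In 7 of 8 responders it was below every non-responder, and the exception, responder 5, was the highest of its group. The log2 fold change against non-responders was -0.44 ± 0.17 (adjusted p = 0.0359). This call was lost without any 1 of responders 1, 4 and 8 or non-responders 4, 5 and 6 (adjusted p from 0.0532 to 0.103), and under 5 of the 8 alternative settings, among them adjustment for the protein-coding share, where the fold change was -0.0057 (adjusted p = 0.987). The predicted genes Gm37804 and Gm48008 have exons overlapping those of Tgfb3 on the opposite strand.

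Within a tumour, the ratio of Tgfb2 to Tgfb1 RPKM does not depend on library scaling. Controls lay at 1.203 to 2.06, non-responders at 0.620 to 1.10, stable tumours at 0.284 to 0.642 and responders at 0.247 to 0.567, so that all 6 non-responders lay below every control and all 8 responders lay below every non-responder. The mean ratio was 1.56 ± 0.39 (SD, n = 5) in controls, 0.822 ± 0.175 (n = 6) in non-responders, 0.493 ± 0.135 (n = 6) in stable tumours and 0.424 ± 0.117 (n = 8) in responders. Stable tumours and responders overlapped. Put as shares of the summed ligand RPKM, Tgfb2 made up 47.6 ± 5.4% (SD) in controls and 24.1 ± 4.3% in responders, and Tgfb1 31.3 ± 4.5% and 58.5 ± 7.5%. The summed ligand RPKM itself ranged from 21.7 to 29.4 in controls and 27.9 to 39.9 in responders. The same non-overlap was found with the ratio taken from the estimated counts, 8 of 8 responders below every non-responder and 6 of 6 non-responders below every control. These ratios were chosen after the values were seen and are given without a test.

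**Figure D2:**
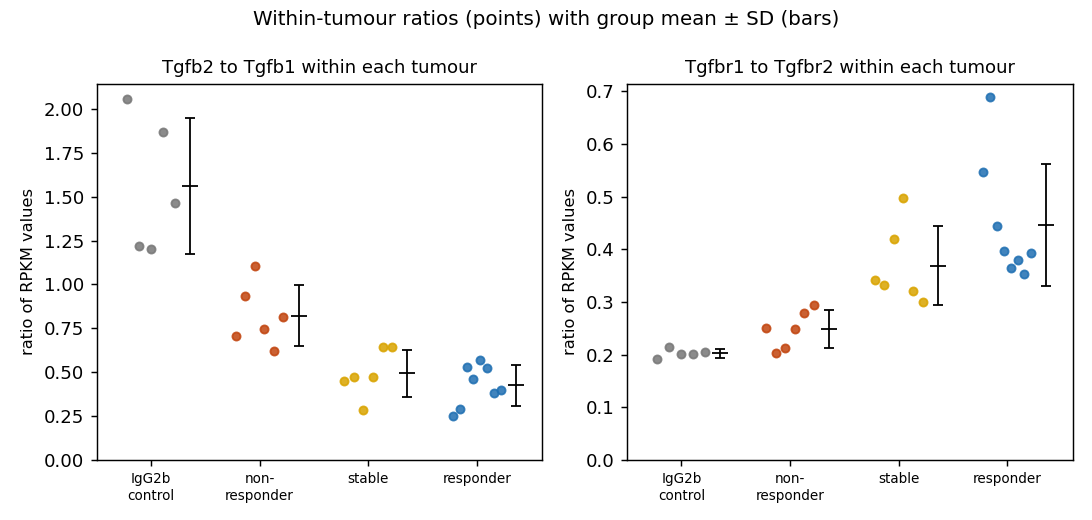
The left panel plots the ratio of Tgfb2 to Tgfb1 RPKM and the right panel that of Tgfbr1 to Tgfbr2 RPKM (vertical axes, from 0) in each tumour by group, with bars for the mean ± SD. The ligand ratio falls from 1.203 to 2.06 in controls to 0.247 to 0.567 in responders, and the receptor ratio of every responder and stable tumour is above that of every non-responder and control.

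Receptor genes did not move together. Tgfbr2 had a mean RPKM of 62.6 over the 25 tumours, against 19.7 for Tgfbr1 and 8.98 for Tgfbr3, the co-receptor betaglycan that presents ligand and can also be shed. Tgfbr2 and Tgfbi were the 2 genes with the highest RPKM of the 9 in all 25 tumours.

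Tgfbr1, the type I receptor, measured 82.2, 73.2, 73.9, 82.7 and 81.3 CPM in controls, a narrow group. Non-responders ranged from 81.6 to 149.5 (median 114.4), stable tumours from 138 to 196 (median 164) and responders from 96.8 to 180.1 (median 104.8). Of the 20 anti-CTLA-4 tumours, 19 lay above every control, and the log2 fold change was 0.74 ± 0.15 (adjusted p = 0.000236). Stable tumours were the highest group: 1.09 ± 0.17 above controls (adjusted p = 2.4e-05), 0.57 ± 0.16 above non-responders (adjusted p = 0.0210) and 0.46 above responders (responders minus stable -0.46 ± 0.15, adjusted p = 0.0206). The call against non-responders was lost without stable 3, non-responder 2 or non-responder 3 (adjusted p from 0.05001 to 0.0627) and without the filter (0.0573). The difference from responders was lost without stable 4 (adjusted p = 0.0555), by limma on RPKM (0.0607) and when adjusted for the protein-coding share (-0.23, adjusted p = 0.571). Responders and non-responders did not differ by the test, at 0.11 ± 0.15 (adjusted p = 0.558).

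Tgfbr2, the ligand-binding type II receptor, measured 391, 315, 337, 375 and 363 CPM in controls. Non-responders ranged from 349 to 479 (median 407), stable tumours from 359 to 450 (median 436) and responders from 159 to 457 (median 246). Responder 5, the responder whose library composition matched the other groups, was at 457 CPM, and the other 7 responders were at 159 to 287, below every tumour of the other 3 groups. The log2 fold change of responders was -0.66 ± 0.16 against non-responders (adjusted p = 0.00178), -0.68 ± 0.16 against stable tumours (adjusted p = 0.00376) and -0.44 ± 0.16 against controls (adjusted p = 0.0202). Adjusted for the protein-coding share these were -0.28 (adjusted p = 0.195), -0.31 (adjusted p = 0.395) and -0.04 (adjusted p = 0.846). With the logarithm of that share they were -0.39 (adjusted p = 0.0460), -0.42 (adjusted p = 0.0864) and -0.17 (adjusted p = 0.366). For the whole anti-CTLA-4 arm the fold change was 0.00 ± 0.14 (adjusted p = 0.993), and the sign turned with RLE scaling (-0.036), DESeq2 (-0.035) and no filter (-0.14).

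Tgfbr3 had 39.6 to 55.9 CPM in the controls and 43.9 to 95.0 in the non-responders, and stable tumours had 56.97 to 87.5 and responders 33.0 to 80.4. It was called against controls in the anti-CTLA-4 arm (0.42 ± 0.17, adjusted p = 0.0470) and in stable tumours (0.55 ± 0.21, adjusted p = 0.0339), and in no comparison between outcomes. The arm's call was lost in 16 of the 25 fits that left out 1 tumour (all 5 controls, 4 responders, 4 stable tumours and 3 non-responders), at adjusted p-values up to 0.147, and under 4 of 7 alternative settings, up to 0.227. That in stable tumours was lost without stable 1, 2, 3 or 5 or control 1 or 5, at adjusted p-values up to 0.0948, without the filter (0.146) and by limma on RPKM (0.0951). Another predicted gene, Gm43422, overlaps Tgfbr3 exons on the same strand.

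For the ratio of type I to type II receptor RPKM, controls lay at 0.191 to 0.213 and non-responders at 0.204 to 0.294. Stable tumours lay at 0.300 to 0.497 and responders at 0.353 to 0.690. Every stable tumour and every responder lay above every non-responder and every control, both in RPKM and in the estimated counts. Means were 0.202 ± 0.008 (SD, n = 5), 0.248 ± 0.035 (n = 6), 0.369 ± 0.075 (n = 6) and 0.446 ± 0.116 (n = 8). Against non-responders, Tgfbr1 was called higher in stable tumours and Tgfbr2 lower in responders. Against controls, responders had both higher Tgfbr1 (0.62 ± 0.16, adjusted p = 0.00189) and lower Tgfbr2. This ratio too was chosen after the values were seen.

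**Figure D3:**
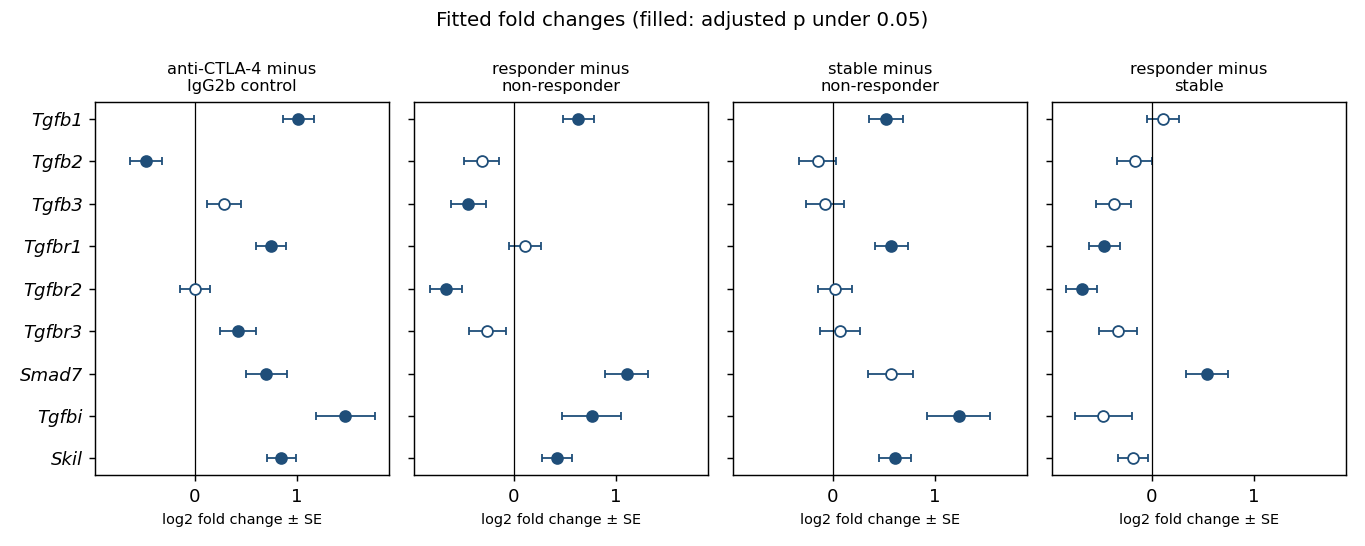
Points show the fitted log2 fold change (horizontal axis) of the 9 genes in 4 comparisons with bars of 1 standard error, filled where the adjusted p was under 0.05. Anti-CTLA-4 tumours are above controls for 6 genes and below for Tgfb2, and responders are above non-responders for Tgfb1, Smad7, Tgfbi and Skil and below for Tgfb3 and Tgfbr2.

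Among the target genes, Smad7 encodes the inhibitory SMAD that competes for the type I receptor and recruits ubiquitin ligases to it, so that it is both induced by the pathway and restrains it. It was the gene with the lowest RPKM of the 9 in 17 of 25 tumours. Controls had 12.6, 18.6, 20.8, 13.3 and 10.3 CPM, non-responders 12.4 to 19.5 (median 18.3), stable tumours 20.6 to 29.7 (median 25.0) and responders 19.3 to 64.7 (median 33.9). Every non-responder was exceeded by all 6 stable tumours and by 7 of 8 responders, and non-responders overlapped the controls. The log2 fold change of responders was 1.10 ± 0.21 against non-responders (adjusted p = 0.000339), 1.25 ± 0.22 against controls (adjusted p = 4.64e-05) and 0.54 ± 0.20 against stable tumours (adjusted p = 0.0422). Responder 1, with the lowest protein-coding share, had the highest level, and responder 5, with the highest share among responders, had the lowest. Without responder 1 the difference from non-responders was 0.94 ± 0.18 (adjusted p = 0.00053) and that from stable tumours 0.38 (adjusted p = 0.0979). The latter call was also lost without responders 2, 3 or 4 or without stable 1, 2, 3, 4 or 6, without the filter (0.0805) and with only the 2 groups compared (0.0514). Adjusted for the protein-coding share, the 2 differences were 0.51 (adjusted p = 0.0823) and -0.061 (adjusted p = 0.918), the second with its sign turned, while that from controls was 0.62 (adjusted p = 0.0170). With the logarithm of that share, the differences from non-responders and stable tumours were 0.67 (adjusted p = 0.0140) and 0.098 (adjusted p = 0.775). Stable tumours were above controls by 0.71 ± 0.23 (adjusted p = 0.0148), or 0.60 (adjusted p = 0.0503) without control 5 and 0.56 (adjusted p = 0.0607) without the filter. Against non-responders they gave 0.57 ± 0.22 (adjusted p = 0.0807), which was 0.58 (adjusted p = 0.0176) after adjustment for the protein-coding share.

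Skil encodes SnoN, a nuclear corepressor that binds SMAD complexes and whose transcription they induce. Controls measured 64.7, 71.0, 67.9, 67.7 and 81.6 CPM, non-responders 70.2 to 133.8 (median 106.5), stable tumours 136 to 175 (median 146) and responders 103 to 178 (median 127). All 6 stable tumours lay above every non-responder, and all stable tumours and responders above every control. The log2 fold change was 0.85 ± 0.14 for the anti-CTLA-4 arm (adjusted p = 4.19e-05), 0.61 ± 0.16 for stable tumours against non-responders (adjusted p = 0.0121) and 0.43 ± 0.15 for responders against non-responders (adjusted p = 0.0207). The last call was lost without non-responder 2 or 3 (adjusted p of 0.0613 and 0.0639), without the filter (0.0879), with only the 2 groups compared (0.0576) and after adjustment for the protein-coding share, where the fold change was 0.52 (adjusted p = 0.0677). With the logarithm of that share the fold change was 0.47 (adjusted p = 0.0436).

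Tgfbi encodes a secreted matrix protein that binds integrins and is made by macrophages and fibroblasts among others. Its level was 103.4, 86.3, 106.8, 103.3 and 175.8 CPM in the controls. Non-responders ranged from 106.8 to 349.3 (median 180.7), stable tumours from 317 to 697 (median 438) and responders from 199 to 665 (median 246). The largest fitted fold in the 63 gene tests was here, where stable tumours were 4.10-fold above controls, at a log2 fold change of 2.04 ± 0.33 (adjusted p = 3.26e-05), with 6 of 6 above every control. Stable tumours were above non-responders by 1.23 ± 0.31 (adjusted p = 0.0102, 5 of 6 above every non-responder), and the anti-CTLA-4 arm was above controls by 1.47 ± 0.29 (adjusted p = 0.000217). The responder to non-responder difference of 0.76 ± 0.29 (adjusted p = 0.0318) was lost without any 1 of responders 2, 3 and 5 or non-responders 1, 2, 3 and 5 (adjusted p from 0.0528 to 0.0870), without the filter (0.0765) and with only the 2 groups compared (0.0610). Adjusted for the protein-coding share it was 1.14 ± 0.33 (adjusted p = 0.0364), the 1 call of 6 in that comparison that held there.

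**Figure D4:**
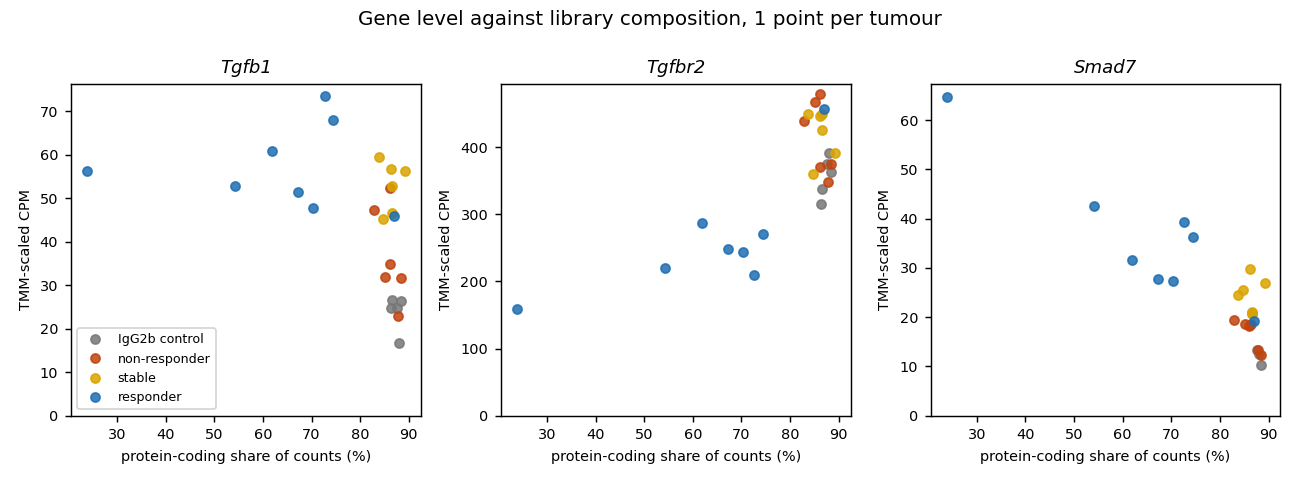
Each point is 1 tumour, with the percentage of its counts on protein-coding genes on the horizontal axis and the TMM-scaled CPM of Tgfb1, Tgfbr2 or Smad7 on the vertical axis, coloured by group. The 7 responders at 23.8 to 74.3% have Tgfbr2 below every tumour of the other groups. Their Smad7, at 27.3 to 64.7 CPM, overlaps that of stable tumours, which reaches 29.7 CPM. Responder 5 at 87.0% lies among the other groups for both genes.

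Other genes of the pathway were counted from lists of names. None of these listed genes was checked under the alternative settings or with a tumour left out. Over all genes, calls in responders against non-responders fell from 8823 to 1810 after adjustment for the protein-coding share. For scale, responders against non-responders had 25.2% of all genes higher and 23.8% lower (median log2 fold change 0.05), and the anti-CTLA-4 arm against controls had 27.7% and 23.4% (median 0.07). Among 13 genes of latency and activation, 3 were higher and 3 lower in responders than in non-responders, with a median log2 fold change of 0.27, shares near those of all genes. Thbs1, encoding thrombospondin-1, an activator of latent ligand, had a mean of 2253 CPM in responders against 839 in non-responders (log2 fold change 1.42 ± 0.37, adjusted p = 0.00353) and Ltbp2 105 against 45.1 (1.23 ± 0.31, adjusted p = 0.00315). Ltbp1, a latent TGF-beta binding protein that anchors the latent complex in matrix, was lower, 54.4 against 102 CPM (-0.91 ± 0.18, adjusted p = 0.000522), as was Itgav, the integrin alpha V chain, 263 against 342 (-0.38 ± 0.15, adjusted p = 0.0393). Against controls the anti-CTLA-4 arm had 6 of these 13 higher and 1 lower, with Thbs1 at 4.98-fold (2.32 ± 0.39, adjusted p = 3.67e-05) and Ltbp1 at -0.85 ± 0.16 (adjusted p = 0.000127). Group means of the arm are over its 20 tumours, while its fold change weights the 3 outcomes equally.

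Of 8 signal transducers and co-receptors, 5 were lower and 0 higher in responders than in non-responders, where 23.8% of all genes were lower and 25.2% higher, and their median was -0.24. Eng, the co-receptor endoglin, was at 119 against 166 CPM (-0.48 ± 0.11, adjusted p = 0.00191), and Smad3, the receptor-activated SMAD, at 62.1 against 79.0 (-0.35 ± 0.08, adjusted p = 0.00208). Of the endothelial markers, 5 of 5 were lower in the same comparison, with summed levels of 39.3 to 95.0 CPM in responders and 128 to 257 in non-responders, and no endothelial marker was at 0 in any tumour. Endoglin is abundant in endothelium, and the part of these cells in its difference was not tested. Against controls 4 of 8 were lower and 0 higher in the anti-CTLA-4 arm, where 23.4% of all genes were lower and 27.7% higher, among them Acvrl1, a type I receptor of endothelium, at -0.55 ± 0.17 (adjusted p = 0.00941).

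Of 12 inhibitors and feedback genes other than Smad7 and Skil, 4 were higher and 2 lower in responders than in non-responders (median 0.02). These shares are not far from the 25.2% and 23.8% of all genes. Smad6, the other inhibitory SMAD, was at 4.26 against 1.72 CPM (1.28 ± 0.44, adjusted p = 0.0212), and Tgif1, a SMAD corepressor, at 49.7 against 26.8 (0.89 ± 0.17, adjusted p = 0.000417). Its relative Tgif2 was lower in 8 of 8 responders than in every non-responder, 9.39 against 20.8 CPM (-1.15 ± 0.16, adjusted p = 2.75e-05), and the ubiquitin ligase gene Smurf2 was at -0.27 ± 0.10 (adjusted p = 0.0288). The opposite directions of Tgif1 and Tgif2 were also seen for the anti-CTLA-4 arm against controls, at 1.36 ± 0.17 (adjusted p = 1.81e-06) and -0.86 ± 0.14 (adjusted p = 2.39e-05). In that comparison 5 of the 12 were higher and 2 lower, where 27.7% of all genes were higher and 23.4% lower.

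Among 12 early target genes, 3 were higher and 1 lower in responders than in non-responders (median 0.16). Of all genes 25.2% were higher, a like share, and 23.8% lower. Cdkn1a, encoding a cell cycle inhibitor, was at 97.2 against 55.0 CPM (0.82 ± 0.28, adjusted p = 0.0179). Cdkn2b, another cell cycle inhibitor induced by TGF-beta in epithelium, was lower at 1.46 against 2.58 CPM (-0.83 ± 0.25, adjusted p = 0.00977). Against controls 5 of 12 were higher in the anti-CTLA-4 arm and 0 lower, where 27.7% of all genes were higher and 23.4% lower. Itgae, the integrin CD103 of tissue-resident T cells and some dendritic cells, was at 21.9 against 4.31 CPM (2.31 ± 0.36, adjusted p = 1.4e-05). The summed level of 6 T cell markers was 7.64 to 22.7 CPM in controls and 19.2 to 161.2 in non-responders, with 119 to 186 in stable tumours and 75.2 to 210.3 in responders. No T cell marker was at 0, and its part in the Itgae difference was not tested.

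Of 13 matrix and contractile targets listed, 12 were tested. In stable tumours against non-responders 0 were called, where 14.9% of all genes were, and in responders against stable tumours 4 were lower and 0 higher, where 17.8% of all genes were lower and 20.5% higher. Responders against non-responders gave 0 higher and 1 lower (median -0.16), the lower one being Sparc, a matrix glycoprotein, at 876 against 1399 CPM (-0.67 ± 0.18, adjusted p = 0.00427). Against controls 5 of 12 were higher in the anti-CTLA-4 arm, with Col1a1, a chain of type I collagen, at 3116 against 1176 CPM (1.37 ± 0.33, adjusted p = 0.00131). Of all genes 27.7% were higher in that comparison. Fibroblast markers had 6 of 8 higher there, with summed levels of 1577 to 3593 CPM in controls and 3241 to 11288 in anti-CTLA-4 tumours. Col1a1 and Col1a2 are in both lists and weigh heavily in that sum, so it is no separate view of these targets. Their lowest counts in any tumour were 14964 and 8391, and those of the other fibroblast markers ran from 20 (Fap) to 404 (Pdgfrb). No fibroblast marker was at 0, and the part of fibroblast content was not tested.

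In the related activin and BMP branch, 5 of 17 were higher and 3 lower in responders than in non-responders (median 0.44), shares near the 25.2% and 23.8% of all genes. Inhba, encoding the activin A subunit, was at 83.7 against 21.1 CPM (1.99 ± 0.42, adjusted p = 0.00083), and Grem1, a BMP antagonist, at 35.95 against 5.01 (2.83 ± 0.96, adjusted p = 0.0186). Gdf15, a distant relative of the ligands induced by cell stress, was at 1.33 against 13.5 CPM (-3.36 ± 0.68, adjusted p = 0.000588), and the BMP target Id3 at -0.89 ± 0.27 (adjusted p = 0.00895). Inhba and Gdf15 also showed the highest and lowest called fold changes of this branch in the anti-CTLA-4 arm against controls, at 2.69 ± 0.45 (adjusted p = 3.42e-05) and -3.48 ± 0.50 (adjusted p = 6.74e-06). There 6 of 17 were higher and 2 lower, beside 27.7% and 23.4% of all genes.

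The 9 genes fell into loose patterns across tumours, described here by Spearman's rho over the 25 tumours, which share groups and library composition, so no p is given. Tgfbi and Skil were most alike (0.95), followed by Tgfbr1 with Skil (0.91) and Tgfbr1 with Tgfbi (0.89). Tgfb1 varied with Smad7 (0.82) and Tgfb3 with Tgfbr2 (0.78), whereas Tgfb1 and Tgfb2 were at -0.33 and Tgfbr2 and Smad7 at -0.49. Among 11281 protein-coding genes searched, the 3 most like Tgfb1 were BC005537 (0.94), Furin (0.93) and Etv6 (0.93), and Furin encodes the protease that cleaves the TGF-beta proprotein. Those most like Tgfb2 were Ncstn (0.90), Ltbp1 (0.88) and Etv5 (0.86). Tgfbr1 was closest to Csf1r (0.96), the macrophage growth factor receptor, P2ry6 (0.96) and Tnfaip8l2 (0.95), and Tgfbi to Sirpb1c (0.97), Itgam (0.97) and Havcr2 (0.96). Skil was closest to Itgb5 (0.97), Havcr2 (0.96) and Mdfic (0.96), Tgfbr2 to Fcgrt (0.92), Tshz1 (0.91) and P2ry12 (0.91), and Smad7 to Slc25a37, Nckap5 and Carmil1 (0.94, 0.94 and 0.93). Tgfb3 was closest to Clec4a2, Cdh11 and Pdgfd (0.87, 0.87 and 0.86), and Tgfbr3 to Ptprg, Dchs1 and Cd300ld3 (0.90, 0.90 and 0.87).

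Several marker lists moved with the same genes. The summed level of 7 macrophage markers was 504 to 899 CPM in controls and 695 to 2209 in non-responders, with 1979 to 3184 in stable tumours and 941 to 2782 in responders, and no marker of the 7 was at 0 in any tumour. In stable tumours 7 of 7 were above controls, where 22.2% of all genes were higher, and 3 of 7 above non-responders, where 7.08% were. Responders against non-responders gave 0 of 7 called, where 48.9% of all genes were. Spearman's rho of the sum was 0.94 with Tgfbr1, 0.90 with Skil and 0.88 with Tgfbi, and stable tumours, highest in the sum, were also highest in the mean of these 3 genes. The T cell sum was at 0.81, 0.76 and 0.73 and the sum of 4 platelet genes at 0.70, 0.73 and 0.78 with Tgfbr1, Skil and Tgfbi. Of those platelet genes 2 were tested. Both were higher than controls in the anti-CTLA-4 arm, in responders and in stable tumours, where 27.7%, 36.1% and 22.2% of all genes were higher. The melanocyte sum was inverse to Tgfbi (-0.90), Skil (-0.88), Tgfbr1 (-0.78), Smad7 (-0.76) and Tgfb1 (-0.73). Tgfb2 varied with the melanocyte sum at 0.63, Tgfb1 with 4 regulatory T cell markers at 0.76 and Tgfbr3 with fibroblast markers at 0.77. Smad7 was at -0.76 with the protein-coding share and -0.70 with the endothelial sum. The part of cell content in any of these differences was not tested.

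**Figure D5:**
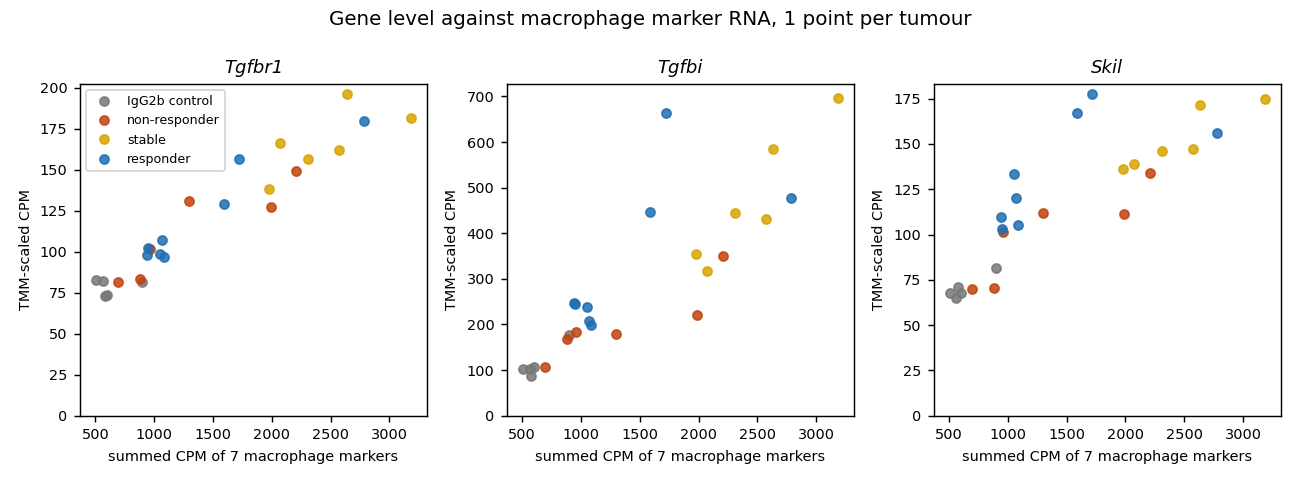
Each point is 1 tumour, with the summed CPM of 7 macrophage markers on the horizontal axis and the TMM-scaled CPM of Tgfbr1, Tgfbi or Skil on the vertical axis, coloured by group. Group means of all 3 genes are lowest in the controls, where the markers are 504 to 899 CPM, and high in the stable tumours, where the markers are 1979 to 3184 CPM.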

How the data were processed

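Bulk RNA sequencing of 25 tumours was analysed: 8 responders, 6 stable tumours, 6 non-responders and 5 controls, with groups from the labels and replicate numbers in record order, which pair none. The labels name a stranded total RNA kit but polyA RNA as the molecule, which was not resolved. The submitters' processing notes name bcl2fastq 2.17, Trimmomatic, STAR 2.5.1, RSEM 1.2.22 and build mm10, with no roles given. The authors deposited estimated counts (expected counts) for 55450 genes, not normalized, of which 5.64% of values were not whole, and RPKM values for 19518 unique symbols, for which neither gene lengths nor a denominator is given in the sources used here. Estimated counts were rounded for testing. All 55450 identifiers were in GENCODE release M21 for GRCm38, used for coordinates.

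Genes were filtered with filterByExpr by group, scaled with TMM and tested with edgeR 4.0.16 in R 4.3.3 (robust quasi-likelihood F tests, 4 group means over all 25 tumours, no covariate, 7 contrasts, two-sided, Benjamini-Hochberg adjustment over 18031 genes). In the anti-CTLA-4 contrast the 3 outcome groups weigh equally. Standard errors are the fold change over the root of F. The procedure was tested on simulated data. No duplicated library was found, the smallest chi-square per gene within a group being 17.1. The labels do not say more of replicates than mouse numbers, and p-values measure the spread between these tumours.

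The 9 genes, the lists and the comparisons were chosen with earlier results of these data known. Named pathway genes are, per list, the called genes with a mean of at least 1 CPM that had the highest and the lowest 2 fold changes in responders against non-responders, and the highest and lowest 1 in anti-CTLA-4 against control. An early target gene that this rule names is not reported here. The most alike genes are the 3 with the highest Spearman correlation of log2 CPM at a mean of at least 5 CPM. Alternatives were DESeq2 1.42.0, its RLE scaling in edgeR, no filter, protein-coding genes only, the protein-coding share as a covariate, only the groups compared, limma 3.58.1 on log2(RPKM + 1) and each tumour left out. The logarithm of that share was added after the data were seen. These alternatives were read for the 9 genes and for counts and medians over all genes, not for the genes of the pathway or marker lists. Levels of platelet, keratinocyte and skeletal muscle markers are given in the closing section.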

Additional observations from a re-analysis of the deposited data

Results flagged for a closer look

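In 36 sets of values (9 genes in 4 groups), 4 had a tumour that stood apart from the rest of its group by Dixon's test at the 95% level, where chance gives about 1 in 20. Control 1 had 16.7 CPM of Tgfb1, with the next lowest control at 24.7. Control 5 had 29.3 CPM of Tgfb3, with the next control at 20.2, and 175.8 CPM of Tgfbi, with the next at 106.8. Responder 5 had 457 CPM of Tgfbr2, with the next responder at 287, and its protein-coding share of 87.0% was likewise the highest of the responders. Without responder 5 the difference in Tgfbr2 between responders and non-responders was -0.82 ± 0.12 on the log2 scale (SE, edgeR, adjusted p = 9.71e-06). The remaining responders have shares of 23.8 to 74.3%, below every other tumour, so outcome and share cannot be told apart in that fit. With all tumours and adjustment for the share, the difference was -0.28 (edgeR, adjusted p = 0.195). In that fit responder 5 is the only responder inside the range of the other groups, so it cannot separate outcome from share either.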

How the results depend on the processing

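No paired analysis was possible because the labels give mouse numbers, none of them shared between groups, and the replicate numbers used here follow record order and pair no tumours. Of 36 calls on the 9 genes in 63 gene tests, 16 held under every alternative setting and with each of the 25 tumours left out, and 22 held in all fits that left 1 tumour out. Of the 6 calls in responders against non-responders, 1 was left after adjustment for the protein-coding share and 5 after adjustment for its logarithm. With only the groups compared, 3 were left. The 3 calls in responders against stable tumours fell to 0 after adjustment for that share or its logarithm, where 0 and 322 genes were called in all against 6891. In stable tumours against non-responders 2 of 4 calls were left without a filter, and in non-responders against controls 1 of 3 with RLE scaling, 0 without a filter and 0 with only the groups compared. Leaving out 1 tumour gave 0 to 5 calls in non-responders against controls (0 without non-responder 5 or control 1, 5 without non-responder 3, 1 without stable 2, 4 or 5, non-responder 4 or 6 or control 2, 3 or 4), 1 to 4 in responders against stable tumours (1 without stable 4) and 2 to 5 in stable tumours against non-responders (2 without stable 3 or non-responder 2 or 3). Over all genes, responders against non-responders gave 1810 calls with the share and 4627 with its logarithm, against 8823, and non-responders against controls 1559 with only the groups compared, against 2500. With 1 tumour left out that last count ran from 1570 to 4237, moving by over 1.5 times without non-responder 3 or 4 or control 1 or 4. In stable tumours against non-responders it ran from 1470 to 3804 (2693 in all), moving so without stable 3 or non-responder 2 or 3. Signs turned mostly for differences near 0. Adjusted for the share these were Tgfbr3 in responders against non-responders (0.0049) and, against stable tumours, Tgfb2 (0.10, and 0.035 with its logarithm), Tgfb3 (0.070) and Smad7 (-0.061). Tgfbr2 in stable tumours against non-responders was -0.023 without a filter and -0.054 by limma. Tgfb3 in responders against controls was -0.021 with RLE scaling, -0.16 without a filter, -0.082 with only the groups compared and -0.013 by DESeq2. Tgfbr2 in anti-CTLA-4 tumours against controls was -0.036 with RLE scaling, -0.14 without a filter and -0.035 by DESeq2. With 1 tumour left out, signs turned for Tgfb3 in responders against controls (-0.12 to 0.15) and in stable tumours against non-responders (-0.13 to 0.016), Tgfbr2 in the anti-CTLA-4 arm (-0.052 to 0.034) and in stable tumours against non-responders (-0.019 to 0.071), and Tgfbr3 there (-0.031 to 0.18). The cause was not tested. Restricting the anti-CTLA-4 fit to the groups compared changes nothing, since all 25 tumours enter it. The median of all genes shifted by more than 0.1 only for responders against controls, by -0.12 with protein-coding genes only and by -0.12 with only the groups compared. Depth limits Tgfb3 most, at 49 counts in its lowest tumour.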

Other observations

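Summed levels of 4 skeletal muscle genes ranged from 44.3 to 1008 CPM in controls and from 23.9 to 523.1 in responders, and 4 keratinocyte genes from 6.98 to 462.6 and from 0.494 to 1215. Of 4 platelet genes, Gp9 was at 0 in 20 tumours and Ppbp in 5, and the sum was 11.2 to 17.9 CPM in controls and 13.8 to 63.2 in non-responders, with 17.3 to 52.4 in stable tumours and 11.7 to 77.9 in responders.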
